A study of Homo sapiens with 24 samples.

Results

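The RNA windows described here are those listed as enriched after immunoprecipitation (IP) of SNRNP200 from whole, untreated HEK293 cells, a human embryonic kidney line. All 182066 windows of that list were taken, out of 329784 entries in the 6 lists of the series. The assay was eCLIP, in which a protein is crosslinked to RNA, the RNA is cut with RNase I, and the RNA that comes down with the antibody is sequenced beside an input library of the same lysate. There were 2 IP libraries and 2 input libraries. The labels call each pair replicates without saying whether they came from separate cultures, so the spread between them may be technical. One treatment field names arsenic for every sample of the series, but the treatment tag of these 4 samples gives none, and they are taken as untreated. The protocol text gives the same antibody number for every protein of the series.

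SNRNP200, also called Brr2, is an RNA helicase of the U5 small nuclear ribonucleoprotein (snRNP). In the spliceosome it unwinds the paired U4 and U6 small nuclear RNAs (snRNAs), which frees U6 to pair with U2 and with the 5′ splice site of the intron. U5 holds the exon ends in place through a loop in its 5′ part, U2 pairs with the branch point near the 3′ splice site, and introns nearly always begin with GU and end with AG. The windows of the list are at most 100 bases long, on 1 strand, and each carries a place in the transcript: coding exon, untranslated exon, the intron stretch next to a 5′ or 3′ splice site, a stretch near a site, deep intron, or a small RNA.

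Some introns were short enough to be listed from end to end, and a few of these are mirtrons, introns that become microRNA hairpins once they are spliced out. They are shown because the whole hairpin lay in an enriched window. Sequences and positions are RefSeq's on GRCh38, and capitals mark the GU that opens and the AG that closes the hairpin. The 5 hairpins beginning GU and ending AG with most IP reads were:
MIR6807 in TRIM28, chr19:58550285-58550376, plus strand: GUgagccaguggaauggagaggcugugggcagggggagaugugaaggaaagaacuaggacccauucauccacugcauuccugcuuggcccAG
MIR1226 in DHX30, chr3:47849555-47849629, plus strand: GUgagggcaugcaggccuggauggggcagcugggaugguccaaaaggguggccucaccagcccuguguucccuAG
MIR3620 in ARF1, chr1:228097263-228097341, plus strand: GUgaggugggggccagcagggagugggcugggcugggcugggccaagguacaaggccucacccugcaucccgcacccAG
MIR877 in ABCF1, chr6:30584332-30584417, plus strand: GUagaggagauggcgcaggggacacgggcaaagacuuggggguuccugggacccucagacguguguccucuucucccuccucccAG
MIR1229 in MGAT4B, chr5:179798278-179798346, minus strand: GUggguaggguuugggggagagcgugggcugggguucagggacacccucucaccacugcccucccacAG

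In all 5 the window began and ended at the same bases as the hairpin. The windows of MIR3620, MIR877 and MIR1229 were classed as short introns touching both splice sites. Those of MIR6807 and MIR1226 were classed as small RNA, so their ends may be set by the microRNA annotation. The MIR6807 window held 155 IP reads and 5 input reads, summed over the replicates, and the MIR1226 window held 150 IP reads and 2 input reads. MIR3620 had 119 IP and 4 input reads, MIR877 105 and 2, and MIR1229 49 and 2. Their log2 enrichment of IP over input, a value the authors give for each window and here the mean of the replicates, was 4.98, 4.94, 3.80, 4.24 and 3.84, so all 5 stood above the median of the list, 3.46. The lower replicate gave 4.73 for MIR6807, 4.65 for MIR1226, 3.44 for MIR3620, 3.47 for MIR877 and 2.93 for MIR1229.

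Of 1562 RefSeq hairpins, 102 had at least 80% of their length in 1 listed window on their strand. Of these, 71 lay in windows next to a 3′ splice site or in introns short enough to touch both sites, and 15 in small RNA windows. The 3′ end of 78 of the 102 hairpins was the 3′ end of the window, and 73 of those 78 ended in AG. AG closed 79.4% of the 102 hairpins and 16.8% of all 1562. GU at the start together with AG at the end was found in 14 of the 102 and in 36 of the 1562. A hairpin annotated up to an exon edge shares that edge with the window by construction, so these shares describe where hairpins and windows meet. The reads cannot tell the intron before splicing from the hairpin after it.

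The splice sites themselves could be read where 10 exon and 20 intron bases at the site lay inside a RefSeq promoter record, 300 bases around a gene start. This held for 222 windows next to a 5′ splice site. Among those with most IP reads, 5 that begin with GT are shown, with the first 6 intron bases in capitals. Each has 10 exon bases and 20 intron bases of the DNA strand that matches the RNA:
BRD2, chr6:32972918-32972947, plus strand: cccacaataaGTACGTttccgcgagccgcg
DDX5, chr17:64506056-64506085, minus strand: gggaccgaggGTGAGTttgggagccgagct
MTA2, chr11:62601403-62601432, minus strand: cgggtgggagGTGAGTaccgggcgcaggga
EIF5A, chr17:7307743-7307772, plus strand: ttcgcgcgagGTGAGAgcgggcagggcgcg
RABGGTB, chr1:75786265-75786294, plus strand: gttagacatgGTAAGTgtgagtttagcgct

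The BRD2 window, in the gene of a bromodomain protein that reads acetylated histones, held 799 IP and 45 input reads. DDX5, an RNA helicase, had 428 and 10, the chromatin factor MTA2 417 and 6, the translation factor EIF5A 411 and 12, and RABGGTB 316 and 26. The first intron bases were GT in 217 of the 222 sites, which is 97.7%, while GT stood at 4.62% of all positions in the records. GTGAG opened 46.4% of the 222 introns and GTAAG 14.9%. Read on the record's own strand only, GTGAG occurred somewhere in 29.9% of all 35116 records and GTAAG in 13.1%, and at 0.126% and 0.0490% of their positions. The last exon base was G at 86.9% of the sites.

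At the other end of introns 47 windows could be read, and 43 of them, 91.5%, ended in AG, which stood at 7.26% of all positions in the records. Among those with most IP reads, 4 that end in AG are shown as 20 intron bases and 10 exon bases, with the last 3 intron bases in capitals:
CHD4, chr12:6606442-6606471, minus strand: ctcccccctcccccgcaCAGtgactcgggc
BEX3, chrX:103377008-103377037, plus strand: ccaccccggctcgactgCAGgtctgcgagg
POLE3, chr9:113410399-113410428, minus strand: agcactgtgggacactgTAGgccacgtggg
BRD2, chr6:32971575-32971604, plus strand: cgtctttttcctcgtttCAGattcttcgct

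They held 96 IP and 10 input reads in CHD4, a chromatin remodeller, 80 and 8 in BEX3, 76 and 6 in POLE3, a small subunit of DNA polymerase epsilon, and 62 and 7 in BRD2. C and T made up 75.3% of intron bases 20 to 5 before the exon over the 47 sites, the pyrimidine tract of textbook 3′ splice sites. These sites check where the annotation places the windows; the base at a site is not a measure of binding.

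Across the list the IP libraries gave 8092831 reads in the windows and the input libraries 1041894, over 15.6 Mb. A window had a median of 28 IP reads (quartiles 18 and 48) and 3 input reads (quartiles 2 and 6), and 8.36% of windows had no input read. Such totals are of enriched windows only and are not the depth of the libraries. The listed log2 enrichment ran from 1.19 to 8.62, and the median distance between the replicates of a window was 0.81, or 0.62 in the 7708 windows with at least 128 IP reads. The authors' deposited q of the weaker replicate was under 0.2 throughout and under 0.05 in 47.0% of windows. No test across samples was run, since the list keeps 2 values per window and only windows past the threshold in both.

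The enrichment values are set by the authors within classes of GC content. Among windows with at least 50 input reads, a listed value of 0 stood for 1.79 IP reads per input read in windows over 58% GC (122 windows) and for 0.366 IP reads per input read in windows of at most 29% GC (23 windows). Values of windows with different base content are therefore, in several comparisons below, also given as plain IP reads per input read, which carry no such centring. The list also holds only what passed the threshold, so a window with few input reads had to be more enriched to enter it.

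The snRNAs had 41 windows of 33 genes, namely 11 U2 genes, 14 U6 genes, 4 U5 genes, 3 genes of the minor spliceosome and 1 U1 gene, with 263660 IP reads in all. Among genes with U4 names only RNU4ATAC, of the minor spliceosome, was listed. Absence from the list does not show that an RNA was not bound. U2 windows held 161747 IP reads and 37229 input reads, U5 windows 65691 and 27287, and U6 windows 29712 and 1100. This is 4.34 IP reads per input read for U2, 2.41 for U5 and 27 for U6. U6 thus had the fewest IP reads of the 3 and by far the fewest input reads. The median listed enrichment was 5.59 over the 18 U6 windows, 3.64 over the 14 U2 windows and 2.71 over the 4 U5 windows. Most of these genes are near-identical copies or pseudogenes, so how the authors' alignment shared reads among copies cannot be seen, and a pseudogene's reads may be those of the expressed gene.

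The authors' grid cut most snRNA genes of the major families into a 5′ and a 3′ window of about equal length, and more of the listed ones were 5′ windows. The exception was the U6 copy inside XPR1 that is named only U6, which was listed as 1 window of 96 bases at chr1:180758722-180758817 and has no side. For U2, the 5′ window was listed for all 11 genes and the 3′ window for 3. For U5, the 5′ window was listed for all 4 genes and the 3′ window for none. That 5′ window is bases 1 to 60 in RNU5E-1 and RNU5E-4P and bases 1 to 58 in RNU5D-1 and RNU5E-6P, and it includes the loop that touches the exons. U6 was more even, with the 5′ window listed for 10 and the 3′ window for 7 of the other 13 genes.

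RNU2-1, an expressed U2 gene, had 33875 IP and 7200 input reads in its 5′ window and 22980 IP and 9627 input reads in its 3′ window. Its enrichment was 3.09 and 3.63 in the replicates of the 5′ window, against 1.22 and 1.69 in those of the 3′ window. RNU2-2P, the U2 gene that lies in WDR74, had 39938 IP and 7237 input reads in the 5′ window and 19586 and 4869 in the 3′ window, with replicate values of 3.23 and 4.03 against 2.26 and 2.73. The third U2 copy, named only U2 in the list, had 23454 IP and 4333 input reads in the 5′ window and 6003 and 2567 in the 3′ window, with 3.14 and 4.02 against 1.59 and 1.66. In all 3 genes the replicates of the 5′ window lay above those of the 3′ window without overlap, by 1.91, 1.14 and 1.96 in the mean. Plain reads gave the same direction with a smaller gap: 4.70 IP reads per input read in the 5′ window against 2.39 in the 3′ window of RNU2-1, 5.52 against 4.02 in RNU2-2P, and 5.41 against 2.34 in U2.

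**Figure D1:**
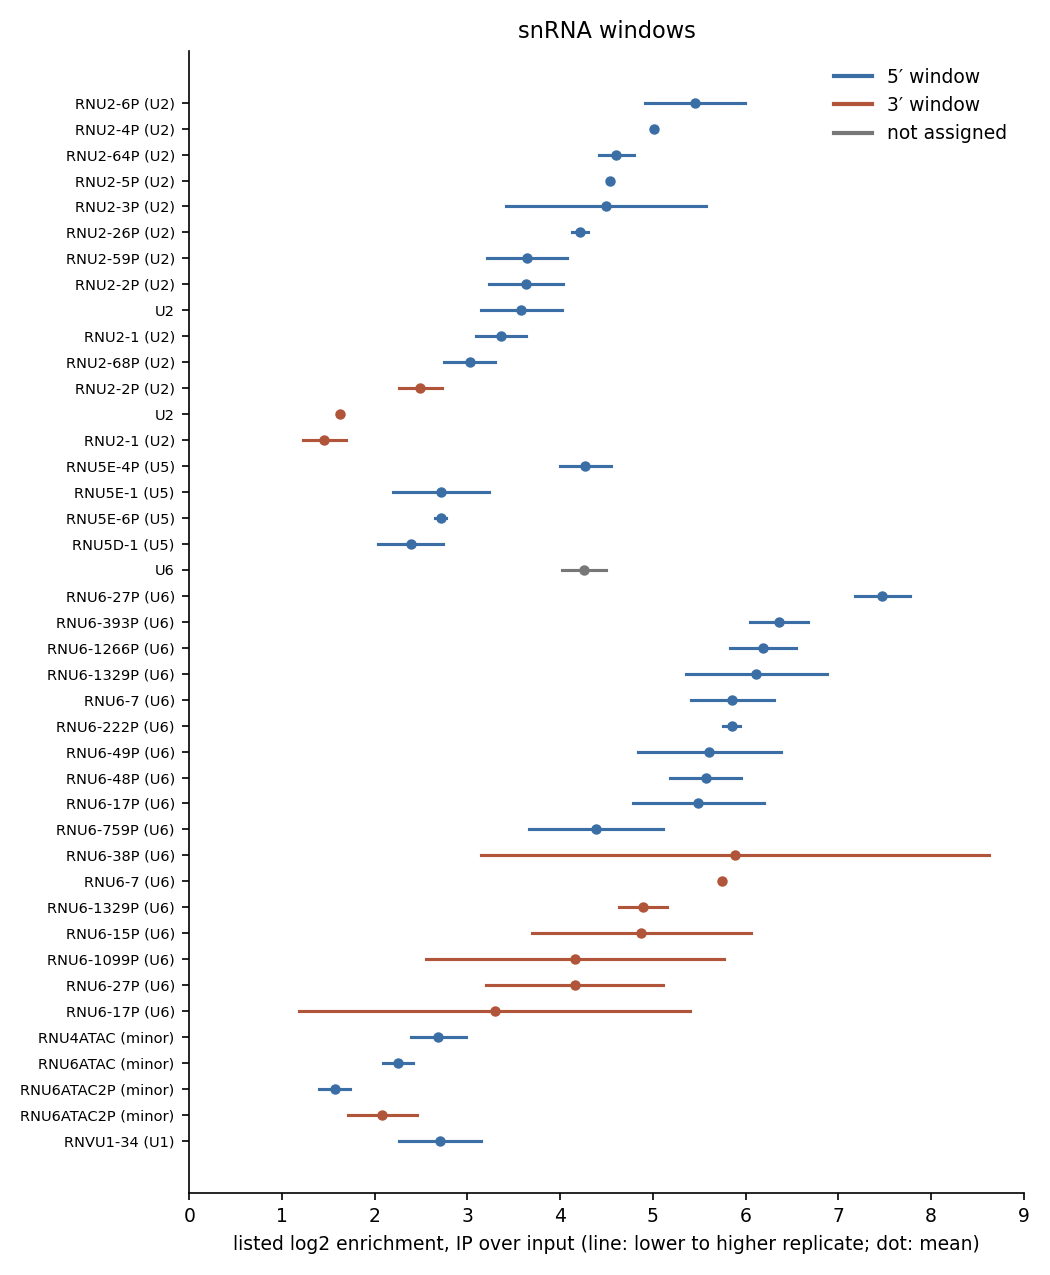
Listed log2 enrichment of IP over input (horizontal axis) of each of the 41 snRNA windows, ordered by family and side; dots are means and lines run from the lower to the higher replicate. All 3 listed 3′ windows of U2 lie below its 11 listed 5′ windows, and most U6 windows lie right of the U5 windows.

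Among U5 windows, RNU5E-1 had 32879 IP and 13289 input reads with replicate values of 2.19 and 3.24, and RNU5D-1 had 19104 and 10820 with 2.04 and 2.74. RNU5E-4P, a pseudogene copy, stood higher, with 8592 IP and 1321 input reads and values of 3.99 and 4.54. RNU5E-6P had 5116 and 1857 reads with 2.65 and 2.77. The replicate ranges of RNU5E-1, RNU5D-1 and RNU5E-6P overlapped, and RNU5E-4P lay above all 3 of them.

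For U6, RNU6-7 held most reads, 19419 IP and 652 input in the 5′ window and 2573 IP and 75 input in the 3′ window. Its replicate values were 5.41 and 6.30 in the 5′ window and 5.73 and 5.76 in the 3′ window, which overlap, and plain reads put the 3′ window slightly higher, with 29.8 IP reads per input read in the 5′ window and 34.3 in the 3′ window. RNU6-27P had the highest enrichment of any snRNA window, 7.18 and 7.77 in its 5′ window from 653 IP and 7 input reads, against 3.20 and 5.11 in its 3′ window from 273 and 17. RNU6-1329P also had its windows apart, with 5.36 and 6.87 in the 5′ window and 4.64 and 5.16 in the 3′ window, on 185 IP and 4 input reads and 68 IP and 2 input reads. In RNU6-17P the replicates of the 3′ window were as far apart as 1.18 and 5.40, and overlapped those of the 5′ window, 4.78 and 6.20; plain reads turned the direction there, with 16.4 IP reads per input read in the 5′ window and 18.4 in the 3′ window. Over the 4 U6 genes with both windows listed, 2 thus had ranges apart, both higher in the 5′ window.

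The snRNAs of the minor spliceosome, which removes a rare class of introns, had a median listed enrichment of 2.17 over 4 windows, lower than that of U2, U5 and U6. In plain reads they had 3.49 IP reads per input read, above the 2.41 of U5 and below U2 and U6, so the order against U5 turned without GC centring. RNU4ATAC, the U4 counterpart, had 2030 IP and 535 input reads in bases 2 to 64 and replicate values of 2.39 and 2.99. RNU6ATAC, the U6 counterpart, had 4003 and 1138 in bases 1 to 63 with 2.09 and 2.41, below the mean of every U6 window of the major spliceosome. RNU6ATAC2P had both windows listed, with 1.40 and 1.73 in the 5′ window and 1.71 and 2.46 in the 3′ window; these ranges overlap, and plain reads turned the direction, with 2.43 IP reads per input read in the 5′ window and 2.36 in the 3′ window. The single U1 window, the 5′ window of RNVU1-34, had 75 IP and 19 input reads with 2.26 and 3.15. Small RNA windows of every kind numbered 69 and took 3.81% of all IP reads in the list.

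By place in the transcript, coding exons held 70435 windows, which is 38.7% of the list (95% Wilson interval 38.5% to 38.9%) and 37.1% of IP reads. Introns of all kinds held 89175 windows, or 49.0%, and 42.0% of IP reads. The stretch next to a 5′ splice site held 33371 windows (18.3%, interval 18.2% to 18.5%), the stretch next to a 3′ splice site 26944 (14.8%, interval 14.64% to 14.96%), and short introns touching both sites 4668 (2.56%). Deep intron, by far the longest part of most genes, held 4404 windows, or 2.42%. UTRs held few, 3391 in 5′ UTRs and 2902 in 3′ UTRs. The intervals cover counting error only, and neighbouring windows are not independent.

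**Figure D2:**
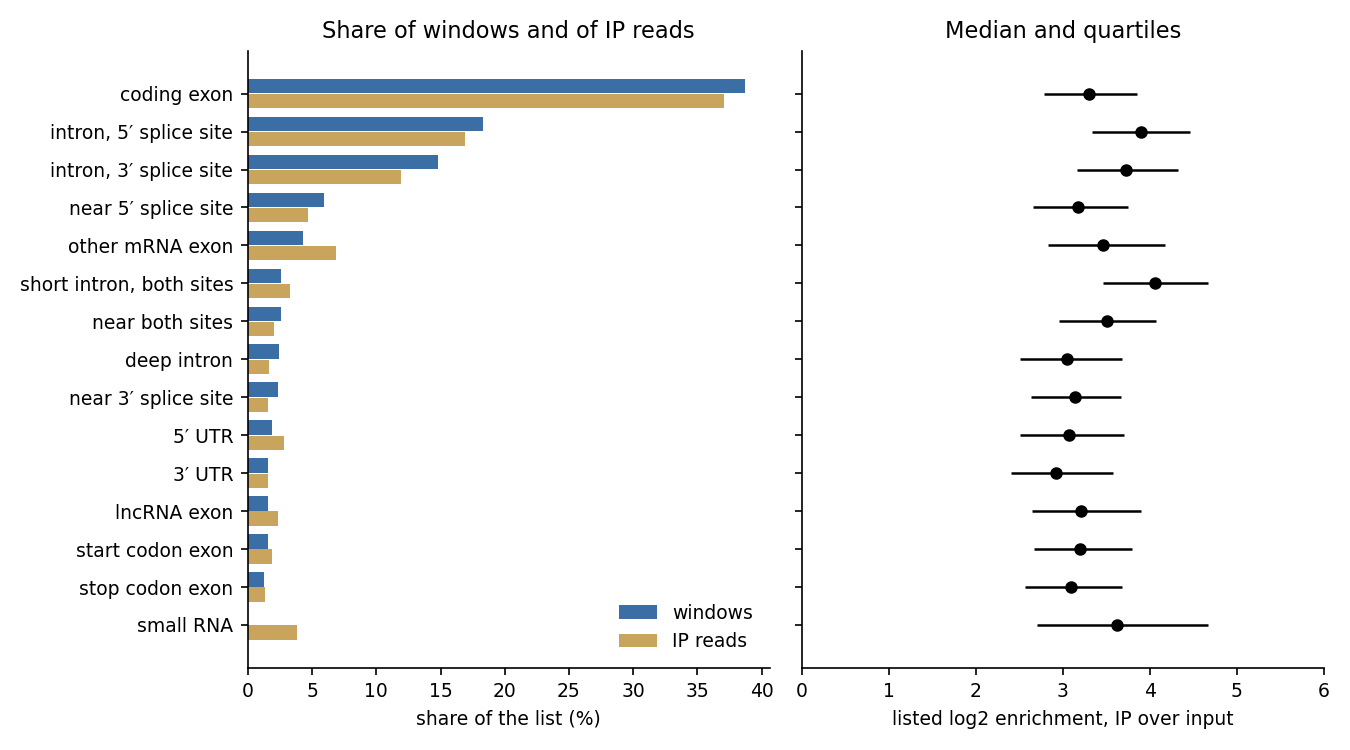
Left, share of the list (%) of each place in the transcript by windows and by IP reads; right, median listed log2 enrichment with quartiles. Coding exons take 38.7% of windows, and the windows at splice sites have the highest medians among the large classes.

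The intron windows at splice sites were more enriched than the coding ones. The median was 4.06 in short introns touching both sites, 3.90 next to 5′ splice sites, 3.72 next to 3′ splice sites and 3.30 in coding exons. In plain reads this was 19.4, 13.3, 9.91 and 6.94 IP reads per input read, the same order. The medians of the lower and of the higher value of each window kept this order too. They were 3.29 and 4.46 next to 5′ sites, 3.13 and 4.30 next to 3′ sites, and 2.76 and 3.77 in coding exons. Which replicate gave which value is not listed, so these medians cannot show whether each replicate alone kept the order. In each of the 10 GC classes the 5′ median was above the 3′ median and the 3′ median above the coding one. Away from the sites the medians dropped, to 3.51 in introns near both sites, 3.17 near 5′ sites, 3.13 near 3′ sites and 3.04 in deep intron, and 3′ UTRs had 2.93. The 4668 windows near both sites were still above coding exons, also in plain reads, with 10.3 IP reads per input read. Near 5′ sites plain reads gave 7.08, slightly above the 6.94 of coding exons, so that order turned without GC centring. Windows near 3′ sites had 6.67, deep intron 6.08 and 3′ UTRs 4.62, below coding exons by both measures.

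The shares and the gap depended on a filter on reads. Windows next to 5′ sites had a median of 27 IP and 2 input reads and coding windows 29 and 4, and no input read was seen in 15.5% of the 5′ windows and 4.35% of the coding ones. Among windows with at least 20 IP and 10 input reads, coding exons took 52.1%, 5′ sites 6.30% and 3′ sites 6.83%, so there the 5′ sites no longer outnumbered the 3′ sites, and the gap between the 5′ and coding medians was 0.28 in place of 0.60. Input is the denominator of the enrichment, so this filter itself removes highly enriched windows with few input reads and does not isolate depth. Windows classed as other mRNA exon numbered 7755, and 75.9% of them lay next to a splice site in another transcript of the gene, so part of the splice-site signal is filed under that class.

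Both sides of the same intron were listed for 16323 introns, 48.9% of the windows next to 5′ sites and 60.6% of those next to 3′ sites. The 5′ side had a median of 34 IP and 2 input reads and the 3′ side 29 and 3. The 5′ side was the more enriched in 58.9% of these introns, by a median of 0.24 (quartiles -0.47 and 0.96). The replicate ranges were apart with the 5′ side higher in 4040 introns, 24.8%, and with the 3′ side higher in 2268 introns, 13.9%; they overlapped in the other 10015. The 5′ sides were richer in GC, at a median of 47% against 42%. In the 4305 introns whose sides fell in 1 GC class the median difference was 0.28, or 0.33 in log2 of plain reads. Over all 16323 introns plain reads summed to 14.3 IP reads per input read on 5′ sides and 10.3 on 3′ sides.

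The difference was not the same at every intron length. It was 0.10 in introns of 101 to 300 bases (2124 introns), 0.28 from 301 to 1000 bases (5306), 0.26 from 1001 to 3000 (5257) and 0.27 from 3001 to 10000 (2965). In the 671 introns over 10000 bases it was 0.05. The share with the 5′ side higher was 53.2% in the shortest class and 52.3% in the longest, against 59.4% to 60.8% in the 3 between. The quartiles of each class spanned 0, so single introns varied more than the classes differed. The sides were most unlike in base content in the longest class, with a median GC fraction of 0.45 on the 5′ side and 0.35 on the 3′ side. Median IP reads there were 32 and 21. In the shortest class the GC fractions were 0.54 and 0.52 and the IP reads 37 and 40. Plain reads were not compared by length, so the part of GC centring in these differences was not tested.

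**Figure D3:**
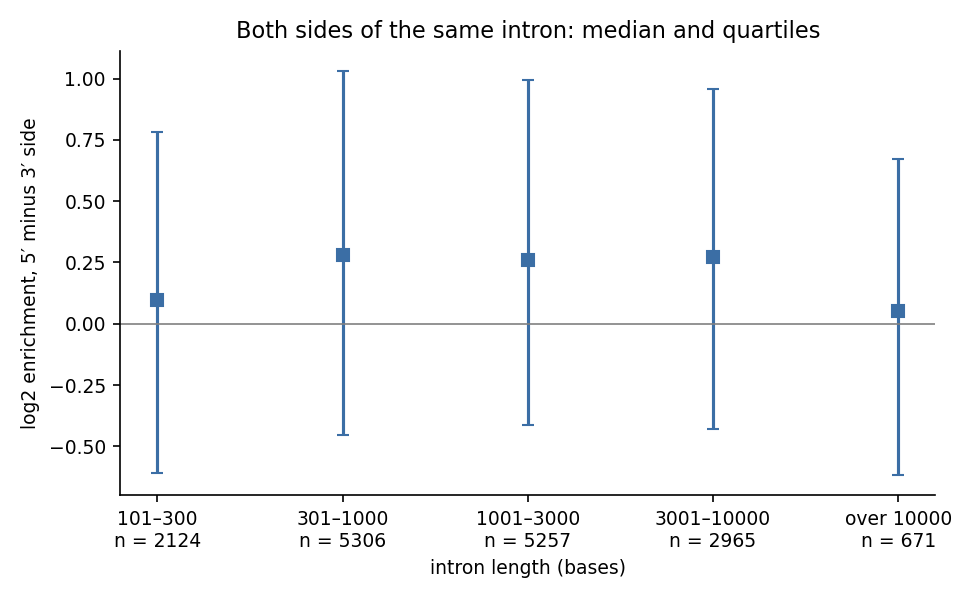
Difference in listed log2 enrichment between the 5′ and the 3′ side of the same intron (vertical axis) by intron length in bases (horizontal axis); squares are medians and bars the quartiles. The median is 0.26 to 0.28 from 301 to 10000 bases and 0.10 and 0.05 in the shortest and longest introns. The values are centred by GC class, and the sides differ in GC most in the longest introns.

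Genes varied in the same measure. Of the 300 genes with at least 10 such introns, 224 (74.7%) had a median above 0, and the gene medians ran from -0.78 in UBA1, the enzyme that activates ubiquitin, to 1.39 in IGF2BP1, an mRNA-binding protein. UBR4 had most paired introns, 71, with the 5′ side higher in 46 and a median of 0.36. HUWE1 had 68, with the 5′ side higher in 46 and a median of 0.51. POLE stood apart among the genes with many, since 13 of its 28 introns were higher on the 5′ side and its median was -0.04.

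Windows thinned out quickly away from the splice sites. In introns long enough to have a deep part, 25126 windows lay 1 to 100 bases from a 5′ site and 18610 as close to a 3′ site. At 101 to 200 bases there were 5601 on the 5′ side, 22.3% of the first step, and 1457 on the 3′ side, 7.83%. The 5′ side kept more windows in this step and in the next, where 2450 and 1136 were listed, and by 401 to 500 bases the counts were 1232 and 758. Median enrichment was 3.85 in the first step on the 5′ side and 3.22 in the second, and 3.64 and 3.20 on the 3′ side.

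**Figure D4:**
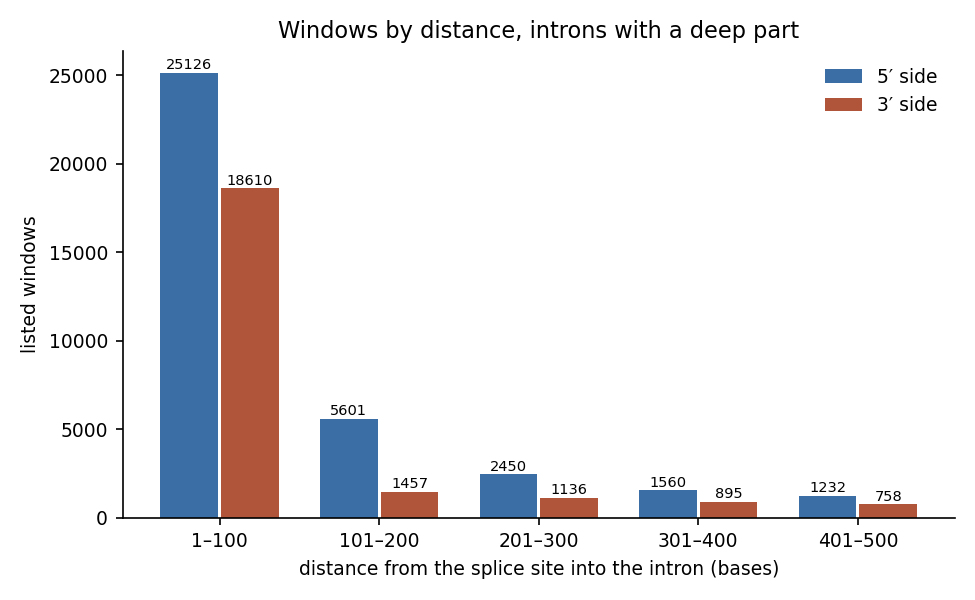
Number of listed windows (vertical axis) in steps of 100 bases from the splice site into the intron (horizontal axis), for the 5′ and the 3′ side. The step of 101 to 200 bases holds 5601 windows on the 5′ side and 1457 on the 3′ side.

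The listed coding windows of an exon were joined into a block, and most blocks held 1 window. The coding windows made 52052 exon blocks, 71.2% with 1 window and 25.4% with 2, while 1.06% had 4 or more. Both flanking introns were listed in the bases touching the block for 16.9% of the blocks, the downstream flank alone for 26.1%, the upstream flank alone for 13.0% and neither for 44.0%. The downstream flank begins with a 5′ splice site and the upstream flank ends with a 3′ splice site. A block spans only listed windows, so its edge need not be the edge of the exon. Where the end of an exon was not listed, a listed flank there did not touch the block and was counted as absent. These shares thus describe blocks and are not shares of exons. The block with most windows lay in an exon of MKI67, the proliferation marker Ki-67, at chr10:128102579-128108926, with 48 windows, 2087 IP reads and 609 input reads. The next lay in exons of SPEN, a transcriptional corepressor, with 33 windows, and AKAP12, an anchor for protein kinase A, with 31. Their median enrichment was 2.33, 2.43 and 2.96, below the median of coding windows.

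An exon window touched the intron window for 22796 of the 5′ site windows (68.3%) and 15090 of the 3′ site windows (56.0%). The intron window was the more enriched by a median of 0.44 at 5′ sites and 0.47 at 3′ sites. Replicate ranges were apart with the intron higher at 7388 of the 5′ sites, 32.4%, and with the exon higher at 2590, 11.4%. At 3′ sites these were 5033, 33.4%, and 1595, 10.6%. Where intron and exon fell in 1 GC class the median gap was 0.48 (4759 sites) and 0.43 (2454 sites). The exon nevertheless held more reads of both kinds: at 5′ sites the intron had a median of 28 IP and 2 input reads and the exon 41 and 5, and at 3′ sites the intron had 26 and 3 and the exon 37 and 6.

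Some genes had long runs of windows listed without a gap, which held exon and intron windows in varied proportion. KHSRP, a splicing and mRNA decay factor, had the longest run, 37 windows over 2586 bases at chr19:6415897-6418482, of which 26 were intron windows, with 5653 IP and 362 input reads. PRRC2A followed with 31 windows, C1orf35 and CDT1, a replication licensing factor, with 28 each, and PTBP1, BRD2, RHOT2 and FUBP1 with 25 each. Intron windows numbered 19 in PRRC2A, 16 in CDT1, 14 in FUBP1 and 11 in BRD2. Only 6 were intron windows in C1orf35, 5 in PTBP1 and 1 in RHOT2. PTBP1, BRD2 and FUBP1 encode RNA or chromatin binding proteins, and RHOT2 a mitochondrial GTPase. Such runs were rare, since 318 runs in the list reached 10 windows and 31.5% of windows stood alone. Of the introns with both sides listed, 62.0% had no window between the sides and 460 had 5 or more.

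The list named 9052 genes. The median gene had 12 windows and 342 IP reads, 798 genes had a single window, and 142 had at least 100. A window next to a 5′ site was listed in 7188 genes, one next to a 3′ site in 6394, and a coding window in 7889. The reads of a gene also depend on its length, and more of its RNA in the cells and more reads per RNA molecule cannot be told apart in these counts.

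HUWE1, a very large ubiquitin ligase, had most windows, 376, of which 135 were coding, 73 next to 5′ sites and 75 next to 3′ sites, with 18513 IP and 2612 input reads. UBR4, another ubiquitin ligase, had 335, PRKDC, the catalytic subunit of the DNA-dependent protein kinase, 305, and DYNC1H1, the dynein heavy chain, 256. After these came MDN1, a ribosome assembly ATPase, with 234, MYCBP2 with 224, the polymerase POLE and the acetyltransferase scaffold TRRAP with 212 each, and USP24 with 199. Further down were PRRC2B with 198, GCN1 with 197, the DNA methyltransferase DNMT1 with 192, PRPF8 with 187, BIRC6 with 178, USP9X and ANKRD36 with 174 each, and CAD, the enzyme that starts pyrimidine synthesis, with 173. These genes have many exons, and coding windows and splice-site windows made up most of their windows. Per 100 listed bases they differed by more than their window counts did, with 90.01 IP reads and 10.7 input reads in DNMT1, 56.1 and 7.91 in HUWE1, and 28.96 and 5.35 in BIRC6.

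NBPF20 and NBPF19 differed in kind from the others. Of the 213 windows of NBPF20, 163 were deep intron, and of the 183 of NBPF19, 107 were. In HUWE1 5 of 376 windows were deep intron, and in UBR4 none of 335. These are members of a gene family with many near-identical repeated copies, so reads of one copy may have been counted in another.

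**Figure D5:**
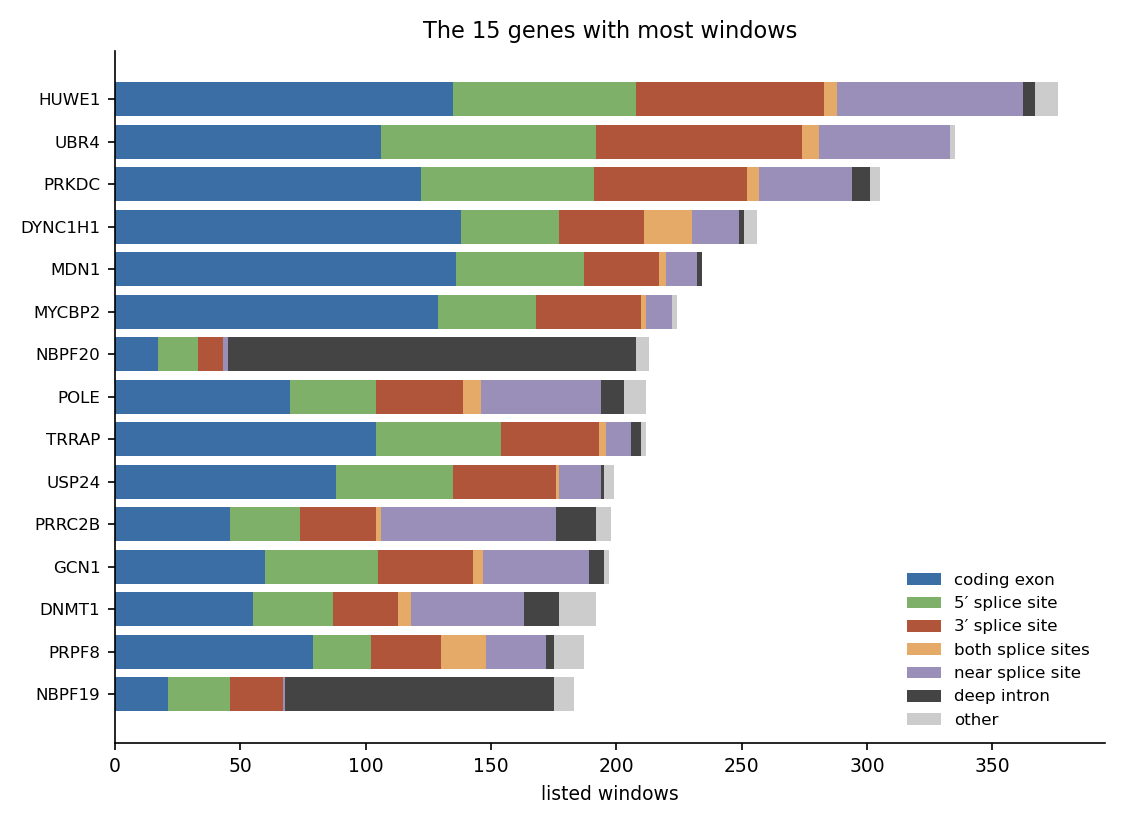
Number of listed windows (horizontal axis) of the 15 genes with most windows, split by place in the transcript. Coding exon and splice-site windows prevail in all but NBPF20 and NBPF19, where 163 and 107 windows are deep intron.

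Ranked by IP reads, genes of small RNAs led. WDR74 had 61180 IP reads, but 65.3% of them were in the 5′ window of RNU2-2P, which lies within it. The 3′ window of RNU2-2P was also counted for WDR74, so 59524 of the 61180 reads were those of RNU2-2P. RNU2-2P itself had 59524, RNU2-1 56855, RP5-934G17.7 with RNU5E-1 inside it 34615, RNU5E-1 32879, U2 29457, RNU6-7 21992 and RNU5D-1 19104. The mitochondrial ribosomal RNA MT-RNR1 had 25577 IP and 14908 input reads at a median enrichment of 1.601, so many reads went with little enrichment.

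Among protein-coding genes, FASN, the fatty acid synthase, led with 25032 IP and 2044 input reads in 152 windows, followed by HNRNPH1, a splicing regulator, with 25021 and 4679 in 66. EEF2, a translation elongation factor, had 21200 and 2041, PTBP1, a repressor of exon use, 19592 and 1736, and HUWE1 18513 and 2612. TNPO2, a nuclear import receptor, had 18279 and 1503, SRRM2, a splicing scaffold, 18005 and 2043, BRD2 17650 and 1706, the ribosomal protein gene RPS2 17314 and 1584, CSNK1E, a kinase, 17297 and 1791, and TRIM28, a corepressor, 16635 and 1102. No single window held more than 13.2% of the IP reads of any of these 11. Per 100 listed bases RPS2 had 859 IP and 78.6 input reads, HNRNPH1 463 and 86.6, and FASN 206 and 16.8.

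Among genes with at least 10 windows, 9 with the highest share of windows next to splice sites are described, at 75% to 84.6%. GRN, the gene of progranulin, had 11 of 13 there, with 352 IP and 11 input reads and no coding window. AGPAT1, a lipid synthesis enzyme, ETS2, a transcription factor, and PLEKHH3 had 81.8% each of 11 windows, and ZNRF3, a ubiquitin ligase that dampens Wnt signalling, 76.9% of 13. TEP1, UXS1, RETREG2 and TAF6 had 75% each. All 9 had few reads, from 246 to 417 IP and from 10 to 34 input reads in the gene.

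At the other extreme, 39 of the 5169 genes with at least 10 windows had none classed as next to a splice site. IRS4, an insulin receptor substrate, had 39 windows, 24 of them coding and 15 in the 3′ UTR, with 9409 IP and 3013 input reads and a median enrichment of 2.32. AKAP12 had 31 coding windows of 32, and MAP1B, a microtubule protein, 26 of 26. The 31 of AKAP12 were those of the single exon block named above. How many introns IRS4, AKAP12 and MAP1B have was not examined here. Other genes on that list were of ribosomal proteins, such as RPLP0 with 36 windows and RPL18 with 28, and of small nucleolar RNA hosts, such as SNHG1 and SNHG15 with 27 each. In RPLP0 21 of the windows were classed as other mRNA exon, in RPL18 18 and in SNHG1 15, a class that mostly overlaps introns of other transcripts. Over the whole list 75.9% of windows of that class lay next to a splice site in another transcript of the gene. The lack of splice-site windows in such genes may thus follow from how windows are classed. SNHG1 stood out by its level, with 15023 IP and 1131 input reads and a median enrichment of 4.90.

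Genes were also looked at in groups. Of 20056 protein-coding genes in RefSeq (GRCh38.p14), 43.2% had a window when matched by symbol or synonym, and of 18330 long noncoding RNA genes 0.857%. These shares include genes that the cells may not express, and the groups were not tested against them. All 18 genes of U5 and tri-snRNP proteins had windows, with a median of 41 a gene, and all 11 genes of spliceosome helicases and partners, with a median of 47; the median over all listed genes was 12. PRPF8, the scaffold at the centre of the spliceosome, had 187 windows with 12869 IP and 1660 input reads. SNRNP200's own mRNA had 140 windows with 6123 and 675, EFTUD2, the GTPase of U5, 87 with 3538 and 446, and SNU13 5 with 132 and 22. The median enrichment was 3.60 over the U5 and tri-snRNP genes and 3.58 over the helicases; it was 3.46 over all listed genes.

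Of 40 SR and hnRNP protein genes, regulators of splicing, 39 had windows, with a median of 41 a gene and a median enrichment of 3.35. SRRM2 had 99, PTBP1 98 and HNRNPK 93, while SRSF8, HNRNPA0 and PCBP1 had 1 each. Of 27 snoRNA host genes, whose introns release small nucleolar RNAs, 26 had windows, with a median of 27 and up to 130 in PRRC2A. Genes encoding very large proteins had windows in 24 of 30, with a median of 162. That list was chosen with earlier results of these data known. It holds genes named above for their many windows, such as HUWE1, UBR4 and PRKDC, so its median repeats that ranking.

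Of 27 genes with a single coding exon, 8 had windows, with a median of 1 a gene and of 2.48 in enrichment. TAF7, a subunit of the general transcription factor TFIID, had 9 windows with 332 IP and 70 input reads, and JUN, an immediate early transcription factor, 5 with 279 and 100. Of 9 long noncoding RNAs chosen as a group, 3 had windows: OIP5-AS1 with 11, TUG1 with 3 and MALAT1 with 2. MALAT1 had 1925 IP and 891 input reads at a median enrichment of 2.17. How much RNA of these genes the cells hold was not measured here, and its part in these counts was not tested.

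The identity of the cells was checked with marker genes. Of 10 genes often reported in HEK293, a line with neural traits, VIM had 32 windows with 2088 IP and 225 input reads, CDH2 12 with 282 and 63, NEFL 7 with 156 and 19, and KRT18 7 with 104 and 10. None of 14 markers of blood, endothelium, fibroblast, liver and muscle had a window. The other 6 genes of the HEK293 set, PAX2, PAX8, LHX1, NEFM, INA and KRT8, had no window either. A list of enriched windows does not measure expression, so this is a weak check of the label in both directions.

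The 20 windows with the highest enrichment and at least 20 IP reads were spread over 19 genes, and 15 of them were next to a splice site or touched both. Over the whole list 35.7% of windows were of these kinds. Most of the 20 had no input read. Such windows made up 15.5% of those next to 5′ sites, 10.5% next to 3′ sites and 18.2% touching both, against 4.35% in coding exons. The part of this in the ranking was not tested. PCED1A had the highest, a piece of 9 bases next to a 5′ splice site at chr20:2839183-2839191 with 346 IP reads, no input read and replicate values of 8.12 and 9.12. TAF10, another TFIID subunit, had 269 IP and no input reads next to a 3′ site, with 7.63 and 8.72. Ratios with 0 input reads rest on the authors' own treatment of zeros. SF1, the protein that first recognises the branch point, had 451 IP and 4 input reads next to a 5′ site with 6.20 and 8.78, and TRIM28 had 663 and 5 next to a 3′ site with 6.80 and 7.33.

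ILF2 had a pair of windows next to 3′ sites, with 120 and 83 IP reads and no input read in either. RBM8A, a core part of the exon junction complex, had 99 IP reads and no input read. EIF3L and EIF3D, subunits of an initiation factor, had 122 and 113 IP reads with no input read, EEF1A1 had 324 IP and 4 input reads, and the nucleolar protein NPM1 had 320 and 13. RPL7, TUBB, GNAS, ACLY, DDX12P and RRP36 were the other protein-coding or pseudogene entries. The replicates of EEF1A1, 7.41 and 7.47, were close, while those of NPM1, 5.44 and 8.82, were far apart.

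A few deep-intron windows held many reads. The window at chr7:92701730-92701829 in CDK6, a cell cycle kinase, had 2701 IP and 99 input reads, the most of any intron window, with 4.75 and 6.07. The window at chr19:2128491-2128589 in AP3D1, a vesicle adaptor subunit, had 1103 and 19 with 4.03 and 5.29. In EVI5 a window at chr1:92700852-92700949 had 333 IP reads and 1 input read, and its replicates were 5.60 and 9.82. What else is annotated at these positions was not analysed here. Among windows next to splice sites, CSNK1E had 1327 IP and 31 input reads in an intron touching both sites, H2AZ1, a histone variant, 1300 and 26 next to a 3′ site, HNRNPAB 1207 and 18 next to a 5′ site, and HMGN1, a nucleosome binding protein, 1195 and 11 in 40 bases next to a 5′ site.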

How the data were processed

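Input and IP libraries were grouped by the labels into 2 groups of 2. Reads had been trimmed (fastp 0.11.5) and aligned to hg38 (STAR 2.7.6), per the submitters' processing notes; they do not name the window caller. The list came without a header, and its columns were told apart by their values. The deposited counts are raw reads per window, summed by the authors over replicates. The deposited log2 values are enrichment of IP over input within a GC class, for the lower replicate, the mean and the higher replicate; the mean was the midpoint in every window within 0.001. The deposited q-values and p-values are the lowest and highest over replicates. GC content is given by the authors as a fraction.

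Windows were counted by type, gene and intron with Python 3.11.15, pandas 2.3.3, numpy 2.4.6 and scipy 1.17.1; figures used matplotlib 3.10.9. Both sides of an intron were matched by feature number, strand and shared transcript, a step tested on simulated data. Windows of several genes counted for each. Replicate ranges were called apart where they did not overlap. Named genes were the 20 with most windows, the 20 with most IP reads, the 10 with the highest share at splice sites among genes with at least 10 windows, the 20 windows highest in enrichment, all snRNAs, and up to 6 members of a list; others were chosen after their values were seen. Some genes that the rule names are not reported here. Members and gene lists were chosen with earlier results of these data known. Library totals were not used here, so precision is given by the reads in each window.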

Additional observations from a re-analysis of the deposited data

How the results depend on the processing

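No paired analysis was possible because the list keeps the lower and the higher replicate value without replicate numbers. These values stood in for leaving a replicate out, but each set can mix both replicates and is not a single library. With q under 0.05, the share of windows was 39.5% in coding exons, 21.6% at 5′ splice sites and 16.7% at 3′ splice sites. With at least 20 IP and 10 input reads these shares were 52.1%, 6.30% and 6.83%, with 1 window per gene 42.5%, 22.7% and 7.73%, and as shares of IP reads 37.1%, 16.9% and 11.9%. The median 5′ minus 3′ enrichment of an intron, 0.24, was 0.18 with q under 0.05, 0.22 and 0.25 from the lower and higher replicate values, 0.49 in log2 reads without GC centring and 0.28 within a GC class; the last 2 settings were chosen after seeing the data. With at least 20 IP and 10 input reads 3694 genes and 20 snRNA genes were left of 9052 and 33, and 2 genes of 142 kept at least 100 windows; with q under 0.05, 25 did. Without GC centring the 5′ minus 3′ difference reversed to -0.16 in RNU6-17P, -0.20 in RNU6-7 and 0.0455 in RNU6ATAC2P, and in RNU6-7 the lower replicate values also gave -0.32. In RNU2-1, RNU2-2P and U2 the same change gave 0.98, 0.46 and 1.21 in place of 1.91, 1.14 and 1.96. Of the 20 genes with most IP reads, 18 remained when ranked by IP minus input reads, 17 with the stricter q, 17 with the filter on reads and 15 with windows of a single gene. Of the 20 with most windows, 15, 6 and 20 remained under the last 3 of these settings. Low input limits the precision of single windows, since the median window rests on 3 input reads.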
